A study of Mus musculus with 44 samples.

Results

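Mitochondrial ribosomal protein (MRP) genes were taken as all genes in the deposited tables whose symbol is Mrpl or Mrps followed by a number and, in some cases, a letter. The rule found 77 of the 38202 genes in the tables, and 4 pseudogenes carrying such names were left out. Of the 77 members, 50 encode proteins of the large subunit, 26 encode proteins of the small subunit and 1, Mrps36, encodes a protein now assigned to the oxoglutarate dehydrogenase complex rather than to the ribosome. The symbol does not always give the subunit: the products of Mrps18a and Mrps30 sit in the large subunit and were counted there. By family, 44 members have a counterpart in the bacterial ribosome and 32 are specific to mitochondria. RNA came from liver and skeletal muscle of 11 wild-type (WT) and 11 Slc16a13 knockout (KO) C57BL/6N males, 44 libraries in all, from mice aged 20 weeks that had eaten high-fat diet (HFD) for 15 weeks and were fasted overnight before they were killed. The KO is a constitutive deletion, made with CRISPR/Cas9, of the promoter-proximal region and first exons of Slc16a13, which encodes a monocarboxylate transporter, and the WT mice were littermates. The study used this pair of tissues to ask how loss of the transporter alters metabolism in obesity, with mitochondrial respiration as one of its readouts.

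The mitochondrial ribosome translates the few mRNAs made from mitochondrial DNA, which encode core subunits of the respiratory chain and of ATP synthase. Its rRNAs come from mitochondrial DNA, whereas all of its proteins are encoded in the nucleus, translated in the cytosol and imported. Compared with its bacterial ancestor it has less rRNA and more protein, so that part of the MRP genes have no bacterial relative. Liver and skeletal muscle are both rich in mitochondria.

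The libraries held about 20150700 to 35218200 counted reads. Markers matched the labelled tissues. The summed level of 6 hepatocyte genes was 73346 to 119042 CPM (read counts scaled to library size) in the 22 livers and 0.308 to 7.81 CPM in the 22 muscles. That of 6 skeletal muscle fibre genes was 137026 to 225183 CPM in muscle and 0.531 to 67.7 CPM in liver. Slc16a13 had 99 to 302 reads in WT liver and 0 to 8 in KO liver. In muscle it had 4 to 22 reads in WT and 11 to 40 in the libraries labelled KO, which goes against that label at this low depth, so these are called muscle labelled KO below. For each library, a slope on log2 gene length was fitted over genes other than the members. It used log2 CPM relative to each gene's mean over all libraries of the tissue. The KO livers of mice 532, 583, 602 and 611 stood apart, with slopes of -0.54, -0.25, -0.42 and -0.08. The range was 0.04 to 0.10 in WT liver and 0.04 to 0.11 in the 7 other KO livers. The liver mean includes the 4 livers, so the sign of a slope alone does not show that CPM rises or falls with length. Comparisons that use KO liver are therefore given with and without these 4 livers.

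In WT mice, most MRP mRNAs were present at similar levels in liver and muscle. On the RPKM scale (reads scaled to library size and to gene length), which allows genes to be compared, the median member stood at 22.9 in liver and 23.6 in muscle. The lower and upper quartiles were 14.1 and 35.5 RPKM in liver and 15.7 and 32.7 RPKM in muscle. The order of the members was similar in both tissues (Spearman's rho 0.81 across the 77 genes, which share libraries and gene lengths). Within each tissue, the mRNA levels of the members spanned a wide range.

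The highest level in WT liver was that of Mrpl12, which encodes the stalk protein of the large subunit. Its lowest, median and highest values over the 11 livers were 61.7, 72.8 and 87.8 RPKM. It was followed by Mrpl17 with a median of 64.3 RPKM (57.6 to 72.3), Mrpl14 with 59.1 (46.0 to 65.9), Mrpl20 with 56.5 (49.4 to 64.6) and Mrps7 with 52.8 (47.7 to 57.3). The ranges of neighbours in this order overlapped, but those of Mrpl12 and Mrpl17 lay wholly above that of Mrps7.

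In WT muscle the order at the top was different. Mrpl42, a mitochondria-specific protein of the large subunit, stood alone with 150, 171 and 182 RPKM as the lowest, median and highest of 11 muscles. Mrps21 came next with a median of 97.9 RPKM (94.7 to 108) and Mrpl51 with 83.0 RPKM (73.4 to 94.7), whose highest value all but met the lowest of Mrps21. Mrpl30 had a median of 69.8 RPKM (63.2 to 75) and Mrpl14 of 60.2 RPKM (51.9 to 81.0), and both ranges overlapped that of Mrpl51. Mrpl14 was the sole gene in the top 5 of both tissues.

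At the lower end, Mrpl23 had a median of 0.753 RPKM in WT liver (4 to 18 reads per library) and 2.02 RPKM in WT muscle (22 to 42 reads). It was too low in liver to pass the filter for the liver comparison of genotypes, and 64.9% of the 85-base windows of its longest coding transcript also occur in another transcript, with the pseudogene Mrpl23-ps1 as the main partner, so its level is uncertain. Mrps36 followed in liver with 2.66 RPKM. Mrpl57 (4.64 RPKM), Mrpl35 (5.51 RPKM) and Mrpl19 (6.09 RPKM) completed the 5 lowest in liver. In muscle these were, above Mrpl23, Mrpl19 with 4.52 RPKM, Mrpl57 with 5.47, Mrps33 with 5.82 and Mrpl39 with 7.17 RPKM. For Mrpl19, the gene length implied by counts and RPKM was 1.52-fold longer in muscle. Its counts were higher in muscle than in liver (log2 fold change 0.15 ± 0.05 SE).

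**Figure D1:**
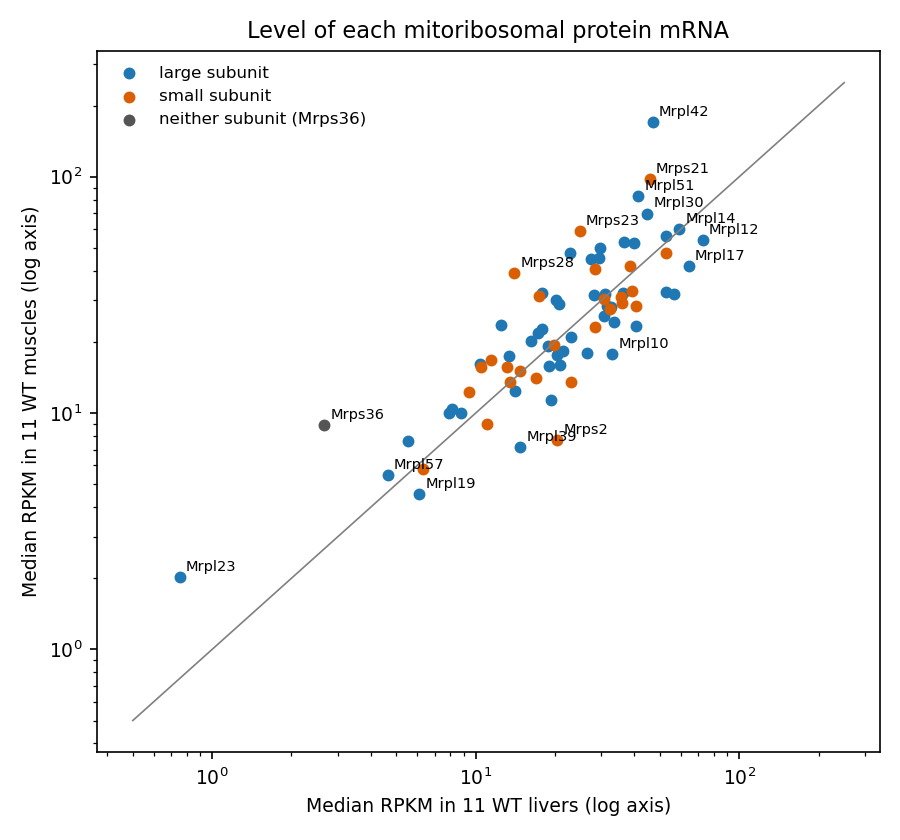
Median RPKM of each of the 77 members in 11 WT livers (x axis) and 11 WT muscles (y axis), both on log axes, coloured by subunit, with the line of equal levels. Most points lie near the line, Mrpl42 and Mrps28 lie above it, and Mrps2 and Mrpl39 lie below it.

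The comparison of WT muscle with WT liver asked which members differ between tissues of the same mice. The main fit did not use the pairing by mouse. With the mouse as block, 40 members had a positive and 37 a negative log2 fold change of muscle over liver (median 0.09), the same counts as without it. At an adjusted p under 0.05 in edgeR (quasi-likelihood F-test, Benjamini-Hochberg over 13907 genes), 37 of 77 members (48.1%) were higher in muscle, where 45.5% of all genes tested were, and 31 members (40.3%) were higher in liver, where 45.5% of all genes were. The shares of members past the test were thus near those of all genes, but their differences were small. The log2 fold change of muscle over liver lay within 0.5 of 0 for 48 members (62.3%), against 25.2% of all genes, and within 1 for 68 members (88.3%), against 44.9%. Over 2-fold higher levels at the same adjusted threshold were seen in muscle for 7 members (9.09%), against 26.7% of all genes, and in liver for 2 members (2.6%), against 28.5%. The values in the 11 livers and 11 muscles did not overlap for 43 members (55.8%), against 70.9% of all genes. In all 11 mice, 31 members were higher in muscle than in the liver of the same animal (40.3%, all genes 39.5%), and 21 were lower in all 11 (27.3%, all genes 40%). In bulk tissue, a different share of cells of a type and a different amount of RNA per cell cannot be told apart.

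The median log2 fold change of the 77 members was 0.09 (all genes: -0.0035). It was 0.11 for the 50 members of the large subunit, of which 25 passed the test upward and 20 downward, and -0.05 for the 26 of the small subunit, with 11 in each direction. Members with a bacterial relative (median 0.10, 21 upward, 16 downward) and mitochondria-specific members (median -0.05, 15 upward, 15 downward) were also split. When the dependence of each library on gene length was removed, 55 members passed upward (all genes 50.3%) and 13 downward (all genes 41.4%), with a median of 0.39 while the median of all genes moved to 0.18, so the split between directions depends on this scaling. Members were short genes: their length had a median of 886 bases where that of all genes tested was 2419.

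Mrpl42 (ENSMUSG00000062981) showed the largest difference. It had 27.9, 31 and 32.4 CPM as the lowest, median and highest of the 11 WT livers and 102, 111 and 120 CPM in the 11 WT muscles. Every muscle was thus far above every liver, and the fold was 3.61 (log2 fold change 1.85 ± 0.03 SE, adjusted p = 3.3e-25 in edgeR). Of its windows, 11.0% are shared with other transcripts.

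Mrps28 (ENSMUSG00000040269), a small-subunit protein with a bacterial relative, had 9.75, 11.0 and 12.4 CPM in liver and 28, 30.2 and 34.1 CPM in muscle, without overlap. It was 2.78-fold higher in muscle (log2 fold change 1.47 ± 0.05 SE). Mrps23 (ENSMUSG00000023723), a mitochondria-specific small-subunit protein, had 19.4, 20.7 and 23.3 CPM in liver and 45.6, 51.2 and 53.8 CPM in muscle. It was 2.39-fold higher in muscle (1.25 ± 0.04 SE), again without overlap.

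Mrps21 (ENSMUSG00000054312), a short small-subunit protein, had 14.2, 16.5 and 17.5 CPM in liver and 31.8, 34.1 and 37.7 CPM in muscle, a 2.13-fold difference (1.09 ± 0.04 SE). Mrps36 (ENSMUSG00000061474), the member that is not a ribosomal protein, had 0.968, 1.54 and 1.80 CPM in liver and 3.68, 4.68 and 5.83 CPM in muscle, a 3.17-fold difference (1.66 ± 0.10 SE). Groups did not overlap for either gene. Mrpl23 (ENSMUSG00000037772) had a log2 fold change of 1.47 ± 0.20 SE, the least precise of the 6 largest, on the few and partly shared reads given above.

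Mrps2 (ENSMUSG00000035772), the relative of a bacterial protein of the small subunit, was the member with the largest difference in favour of liver. It had 36.4, 40.9 and 47.5 CPM in liver and 14.9, 16 and 17.9 CPM in muscle, so every liver exceeded every muscle. The level in liver was 2.57-fold that in muscle (log2 fold change -1.36 ± 0.04 SE, adjusted p = 1.9e-20 in edgeR).

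Mrpl39 (ENSMUSG00000022889), a mitochondria-specific large-subunit protein, had 29.8, 32.7 and 34.1 CPM in liver and 14.5, 15.6 and 16.6 CPM in muscle, and was 2.09-fold higher in liver (-1.07 ± 0.03 SE). Mrpl10 (ENSMUSG00000001445), which anchors the stalk to the large subunit, had 50.7, 54.7 and 56.9 CPM in liver and 24.4, 28.5 and 31.6 CPM in muscle, and was 1.93-fold higher in liver (-0.95 ± 0.04 SE). Groups did not overlap for these genes. Of the windows of Mrpl10, 9.73% are shared with other transcripts, and none of those of Mrps2 or Mrpl39. The next members in this direction were Mrps35 (-0.86 ± 0.04 SE), Mrpl20 (-0.83 ± 0.04 SE) and Mrpl27 (-0.81 ± 0.05 SE), the last with 21.7% of its windows shared.

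**Figure D2:**
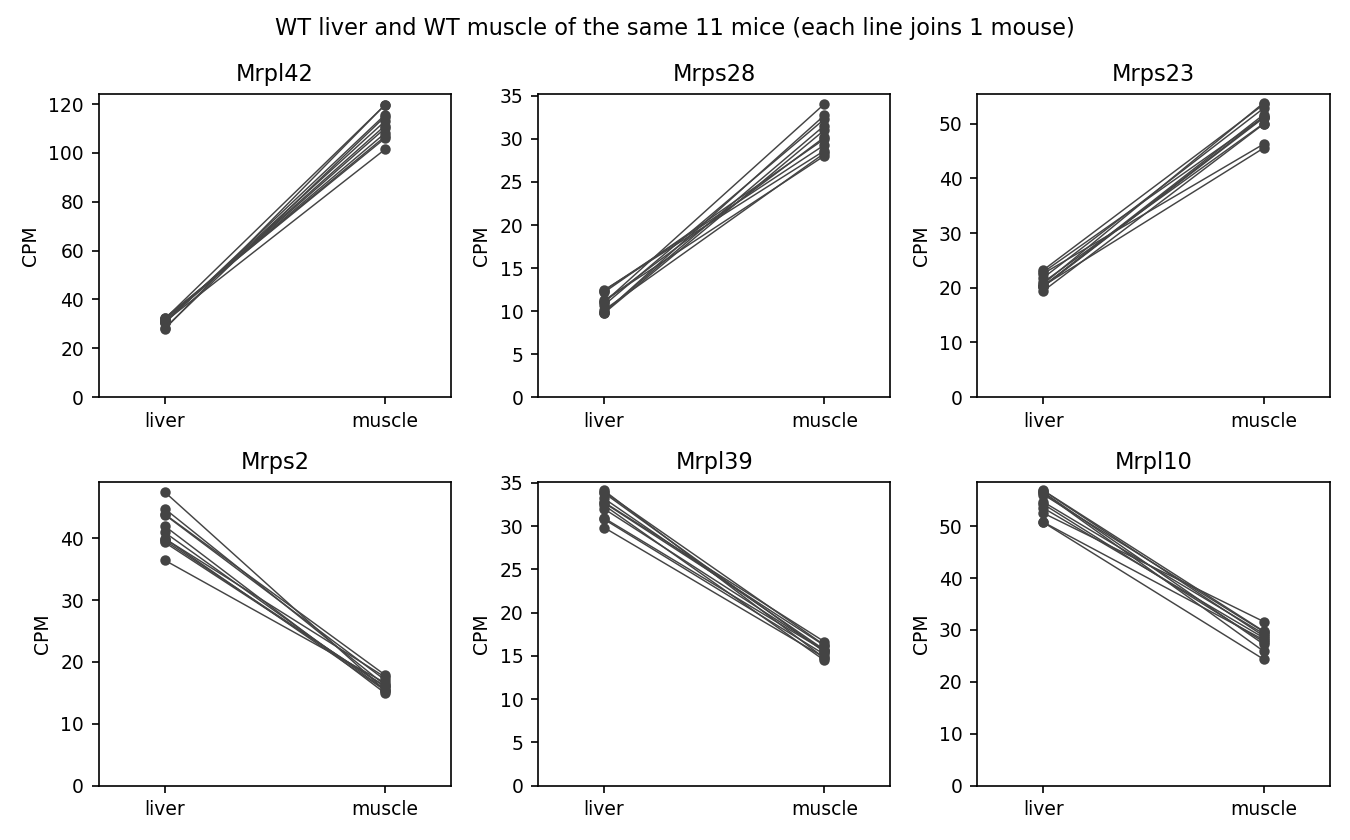
CPM of 6 members in WT liver and WT muscle, with a line for each of the 11 mice; each y axis starts at 0. Lines for Mrpl42, Mrps28 and Mrps23 go up from liver to muscle in every mouse, and lines for Mrps2, Mrpl39 and Mrpl10 go down in every mouse.

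The Mrps18 paralogues, which share an ancestral ribosomal protein and occupy separate places in the particle, did not share a direction. Mrps18a was higher in muscle (0.54 ± 0.04 SE), with 23.8 to 30.6 CPM in liver and 35.5 to 41.6 CPM in muscle and no overlap. Mrps18c was lower in muscle (-0.39 ± 0.04 SE), with 18.6 to 21.3 CPM in liver and 12.6 to 16.6 CPM in muscle and no overlap. Mrps18b was also lower in muscle (-0.22 ± 0.05 SE), with overlapping ranges of 17.9 to 23.3 and 15.4 to 19.6 CPM. For Mrps18b the direction turned to 0.08 when gene length was removed. Of its windows, 59.1% are shared with transcripts of 2 other genes, with the antisense gene Gm16279 as the largest partner.

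The 11 KO mice, which have no library in common with the WT comparison, gave a repeat of the tissue difference. Without the 4 livers that stood apart, the direction was the same for 74 of 77 members (96.1%), against 97.3% of 13882 genes. All 9 members over 2-fold in WT mice were over 2-fold in the same direction, for example Mrpl42 with a log2 fold change of 1.91, Mrps28 with 1.41, Mrps2 with -1.46 and Mrpl39 with -1.05. Of all members, 33 passed the adjusted threshold upward in muscle (42.9%, all genes 45%) and 32 upward in liver (41.6%, all genes 43.7%). With the 4 livers included, the direction was the same for 67 members (87.0%), against 94.9% of 13790 genes. Then 17 members passed upward in muscle (22.1%, all genes 42.8%) and 37 in liver (48.1%, all genes 43.9%), and the median of the members turned from 0.09 to -0.19.

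**Figure D3:**
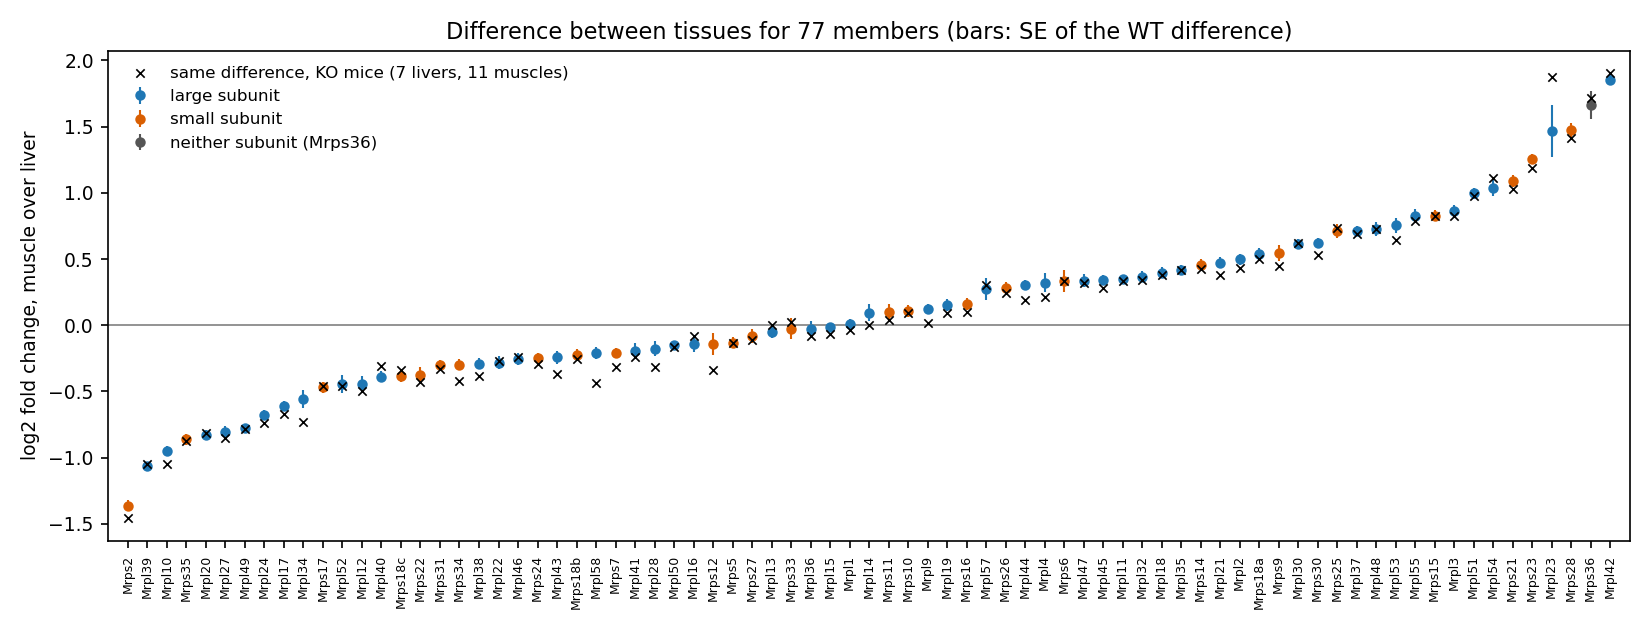
log2 fold change of muscle over liver for each of the 77 members in WT mice (coloured points with bars for the SE, 11 mice) in rising order, and in KO mice without the 4 livers that stood apart (crosses). The curve is flat through its middle, with 68 of 77 members within 1 of 0, and runs from -1.36 at Mrps2 to 1.85 at Mrpl42, and most crosses lie at or near the WT point.

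The promoters shown are of members with tissue differences in each direction, and each holds a motif match. Mrps2, Mrps36 and Mrpl23, also among the largest differences, had no match to any motif searched and are not shown. The RefSeq table (build GRCm38.p6) gives promoters for 68 of the 77 members, from 250 bases before to 50 bases after the gene's start. They were searched on both strands for 6 motifs, none of which contains another: CCGGAAG for ETS factors such as GABP, GCGCATGCG for NRF1, AAGATGGCG for YY1, TCAAGGTCA for estrogen-related receptors, CACGTG for the E-box and TATAAA for the TATA box. Capitals mark the motif match.
Mrpl42, chr10:95501900-95502199, minus strand, YY1 motif: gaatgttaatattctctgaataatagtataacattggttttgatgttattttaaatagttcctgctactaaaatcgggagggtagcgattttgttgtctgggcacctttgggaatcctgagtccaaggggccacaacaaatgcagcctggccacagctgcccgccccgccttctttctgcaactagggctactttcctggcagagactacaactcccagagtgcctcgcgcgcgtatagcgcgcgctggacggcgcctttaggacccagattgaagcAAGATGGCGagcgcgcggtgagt
Mrps23, chr11:88204138-88204437, plus strand, ETS motif on the opposite strand: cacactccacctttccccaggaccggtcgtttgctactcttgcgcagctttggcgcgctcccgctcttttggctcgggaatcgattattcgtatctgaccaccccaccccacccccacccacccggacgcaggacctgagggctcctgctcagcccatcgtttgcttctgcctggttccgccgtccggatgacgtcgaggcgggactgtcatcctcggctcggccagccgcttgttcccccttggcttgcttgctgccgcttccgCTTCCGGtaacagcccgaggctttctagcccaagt
Mrpl39, chr16:84735195-84735494, minus strand, overlapping NRF1 matches on both strands: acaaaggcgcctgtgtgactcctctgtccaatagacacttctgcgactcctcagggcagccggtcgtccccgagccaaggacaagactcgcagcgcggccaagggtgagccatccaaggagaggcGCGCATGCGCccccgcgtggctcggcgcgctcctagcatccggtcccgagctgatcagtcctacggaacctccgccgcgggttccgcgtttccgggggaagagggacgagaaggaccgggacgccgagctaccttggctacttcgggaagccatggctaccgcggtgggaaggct
Mrpl27, chr11:94653541-94653840, plus strand, ETS motif: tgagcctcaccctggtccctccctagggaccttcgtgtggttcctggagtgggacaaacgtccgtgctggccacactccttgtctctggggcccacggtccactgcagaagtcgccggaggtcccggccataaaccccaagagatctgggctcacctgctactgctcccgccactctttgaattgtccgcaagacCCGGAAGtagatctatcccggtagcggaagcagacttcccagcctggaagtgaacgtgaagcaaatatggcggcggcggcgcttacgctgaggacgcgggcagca
With the first transcribed base as position 1, the YY1 motif of Mrpl42 lies at 28 to 36, the ETS motif of Mrps23 at 16 to 22, the NRF1 motif of Mrpl39 at -125 to -117 and, on the opposite strand, at -124 to -116 and the ETS motif of Mrpl27 at -55 to -49.

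The ETS motif was present in 25 of 68 member promoters (36.8%), against 12.9% of the promoters of 17492 coding genes. The YY1 motif was present in 8 (11.8%, against 2.14%). The NRF1 motif of 9 letters was present in 7 (10.3%, against 2.61%), namely Mrpl9, Mrpl10, Mrpl17, Mrpl22, Mrpl32, Mrpl39 and Mrps18b, of which 2 were higher in muscle, with a median log2 fold change of -0.28 against 0.11 for the 61 members without it. This depended on the length searched: the whole palindrome of 10 letters, as in Mrpl39, was present in 3, Mrpl9, Mrpl32 and Mrpl39 (4.41%, against 1.47%), of which 2 were higher in muscle, with a median of 0.12. The E-box was present in 5 (7.35%, against 8.91%), the TATA motif in 5 (7.35%, against 14.8%) and the motif of estrogen-related receptors in 0 (against 0.377%). Of the 25 members with the ETS motif, 12 had a higher level in muscle, among them Mrps23 and Mrps21, and the others had a lower one, among them Mrpl27. Their median log2 fold change of muscle over liver was -0.03, against 0.10 for the 43 members without it. The median GC content was 58.2% in member promoters and 56.3% in those of coding genes. A match of letters is a description of the sequence and not of binding.

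Among WT mice, the members varied less at the median than all genes tested, in a comparison not matched for read depth. The coefficient of variation (CV) over 11 mice had a median of 6.88% across the 76 members tested in liver, against 12.2% across all genes tested, and of 6.79% across the 77 members in muscle, against 11.3%. The smallest CVs were those of Mrpl50 (3.36%), Mrpl11 (3.62%) and Mrpl49 (4.12%) in liver, and of Mrpl37 (3.80%), Mrpl22 (3.91%) and Mrpl50 (4.12%) in muscle. The largest in liver were those of Mrpl23 (45.1%), Mrps36 (18.6%) and Mrpl4 (14.9%), and in muscle those of Mrpl23 (19.6%), Mrps12 (16.6%) and Mrps6 (15.3%). Mrpl23 and Mrps36 were also the genes with the fewest reads per kilobase in liver. In pairs of members, the median correlation of log2 CPM over the 11 mice was 0.14 in WT liver and 0.30 in WT muscle. Between a member and another gene tested, the median was 0.025 in WT liver and -0.0089 in WT muscle. In KO liver the correlation of member pairs was 0.91 with all 11 livers (-0.074 with other genes), with a median CV of 28.2% (all genes 24%). It was 0.19 (0.0014 with other genes) in the 7 livers that remain without mice 532, 583, 602 and 611. Their median CV was 7.07% (all genes 12.8%). The high values in KO liver thus came with the 4 livers. In muscle labelled KO the correlation of member pairs was 0.36 (0.029 with other genes), with a median CV of 7.26% (all genes 12%).

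The comparison of KO with WT liver asked whether MRP mRNAs change when Slc16a13 is lost. With all 22 livers, 0 of 76 members tested passed the adjusted threshold in edgeR, DESeq2 or limma-voom, where edgeR called 3 of 13005 genes (0.0231%). All 76 had a positive log2 fold change of KO over WT, against 48.9% of all genes, with a median of 0.24 (all genes -0.0054) and a range of 0.0055 to 0.42. An unadjusted p under 0.05 with a higher level in KO was reached by 36 members (47.4%), against 9.78% of all genes.

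Without the livers of mice 532, 583, 602 and 611, the picture in liver was different. Of 77 members tested, 21 had a positive and 56 a negative log2 fold change, the median was -0.035, and 0 passed the adjusted threshold in edgeR (all genes 0.0227%). An unadjusted p under 0.05 was reached by 3 members (3.9%, all genes 2.96%), which were Mrpl54 (-0.20 ± 0.07 SE), Mrpl57 (-0.25 ± 0.08 SE) and Mrps26 (-0.14 ± 0.05 SE), all lower in KO. Single livers also weighed on the count of 36: it was 12 without the KO liver of mouse 532 (all genes 4.99%), 19 without that of mouse 583 (all genes 7.09%), 11 without that of mouse 602 (all genes 5.24%) and 23 without the WT liver of mouse 623 (all genes 8.14%).

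The 4 livers could be seen in the members as a group. The median deviation of 76 members from the WT liver mean was 0.85 log2 units in mouse 532, 0.78 in mouse 602, 0.53 in mouse 583 and 0.19 in mouse 611, in the same order as their slopes on gene length. It lay between -0.09 and 0.05 in the 7 other KO livers and between -0.08 and 0.07 in the 11 WT livers. The members took 0.178% to 0.211% of reads in WT liver, 0.183% to 0.192% in the 7 other KO livers and 0.215% to 0.333% in the 4. Among the members themselves, the median log2 fold change of KO over WT liver was 0.28 in the 26 shortest (353 to 789 bases), 0.26 in the next 25 and 0.17 in the 25 longest (1217 to 3715 bases). Without the 4 livers these medians were -0.037, -0.040 and -0.0025. When gene length was removed with all livers kept, 63 members were positive and 13 negative with a median of 0.08, and 10 had an unadjusted p under 0.05 and a higher level in KO, where 7.26% of all genes did. The 75 cytosolic ribosomal protein genes, which are also short (median 639 bases), moved with them: all 75 were positive with a median of 0.37, and 11 were positive with a median of -0.05 without the 4 livers. Beyond these values, what sets the 4 livers apart was not tested.

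**Figure D4:**
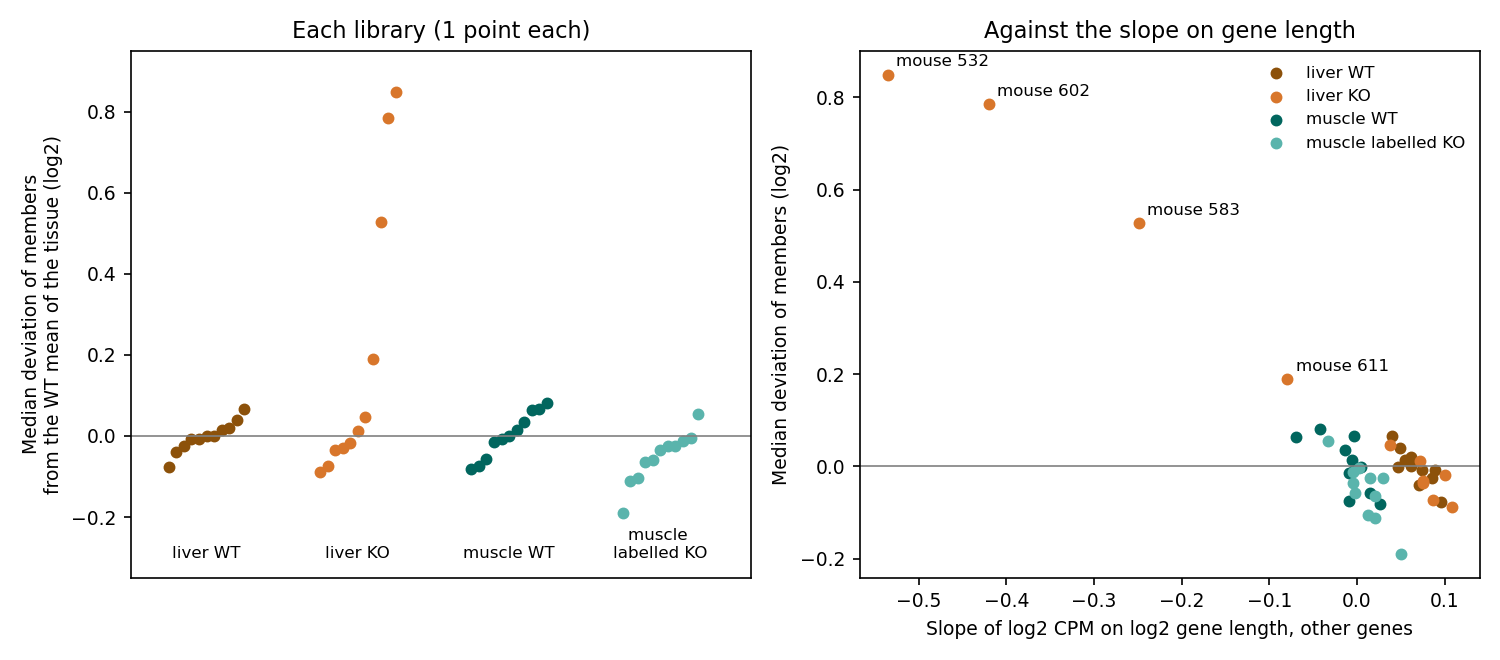
Left, median deviation of 76 members from the WT mean of the tissue (log2 CPM) in each of the 44 libraries, sorted within each group. Right, the same values against each library's slope on log2 gene length, over other genes and relative to the mean of all libraries of the tissue. The 4 KO livers lie apart, at 0.19 to 0.85 on the y axis and at slopes of -0.08 to -0.54, and all other libraries lie between -0.19 and 0.08 on the y axis.

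Mrpl58 (ENSMUSG00000018858), a peptidyl-tRNA hydrolase that became part of the large subunit and frees stalled chains, had the smallest p in liver. It had 16, 19.5 and 20.8 CPM as the lowest, median and highest of WT liver and 18.4, 20.3 and 43.9 CPM in KO liver. Its values were 43.9, 30.0, 39.1 and 22.8 CPM in mice 532, 583, 602 and 611 and 18.4 to 21.7 CPM in the 7 other KO mice, which overlap the WT livers. The log2 fold change was 0.40 ± 0.14 SE (unadjusted p = 0.0096, adjusted p = 0.38 in edgeR), and 0.06 ± 0.05 SE without the 4 livers.

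The same division held for the others with small p. Mrps30, a large-subunit protein despite its name, had 14.2 to 18 CPM in WT liver, 21.6 to 27.1 in the 4 livers and 14.9 to 19.2 in the 7 others. Mrps16, with a relative in bacteria, had 18.6 to 22.8 CPM in WT liver, 28.6 to 53.5 in the 4 livers and 19.2 to 22.1 in the 7 others. Mrpl24 had log2 fold changes of 0.30 ± 0.11 SE with all livers and 0.05 ± 0.04 SE without the 4, and Mrps21 of 0.40 ± 0.15 SE and 0.01 ± 0.05 SE. None passed after adjustment (adjusted p = 0.38 for each in edgeR with all livers, and 0.999 without the 4).

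In muscle labelled KO against WT muscle, 0 of 77 members passed the adjusted threshold in edgeR, DESeq2 or limma-voom, where edgeR called 1 of 13266 genes (0.00754%). Small negative differences prevailed: 64 members were lower and 13 higher, with a median log2 fold change of -0.042 (all genes 0.0078, of which 53.7% were positive). An unadjusted p under 0.05 with a lower level in muscle labelled KO was reached by 15 members (19.5%), against 4.88% of all genes, and by 0 members in the other direction. Leaving out each of the 22 muscles in turn gave 12 to 20 such members (all genes 3.63% and 4.77% in those fits). The slope on gene length was -0.069 to 0.026 in WT muscle and -0.032 to 0.050 in muscle labelled KO, and with gene length removed 63 members were lower with a median of -0.034. The marker sums for fibres (158479 to 225183 CPM in WT muscle, 137026 to 214660 in muscle labelled KO) and adipocytes (91.4 to 375 and 128 to 818 CPM over 5 genes) overlapped between genotypes, and their part in the result was not tested.

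Mrps26, a mitochondria-specific small-subunit protein, had the smallest p in muscle. It had 16.2, 18.2 and 20.3 CPM as the lowest, median and highest in WT muscle and 14.3, 16.2 and 17.7 CPM in muscle labelled KO, with overlapping ranges. The log2 fold change was -0.17 ± 0.05 SE (unadjusted p = 0.0012, adjusted p = 0.49 in edgeR). The next were Mrpl53 (-0.19 ± 0.06 SE), Mrpl43 (-0.15 ± 0.05 SE), Mrpl58 (-0.15 ± 0.05 SE) and Mrps12, the relative of the bacterial protein of the decoding centre (-0.28 ± 0.09 SE). Mrps12 had 13.1 to 22 CPM in WT muscle and 11.8 to 17.9 CPM in muscle labelled KO, and adjusted p was 0.49 for all of these in edgeR. All windows of Mrpl53 occur in another transcript, Gm42688, so its reads cannot be assigned with certainty.

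**Figure D5:**
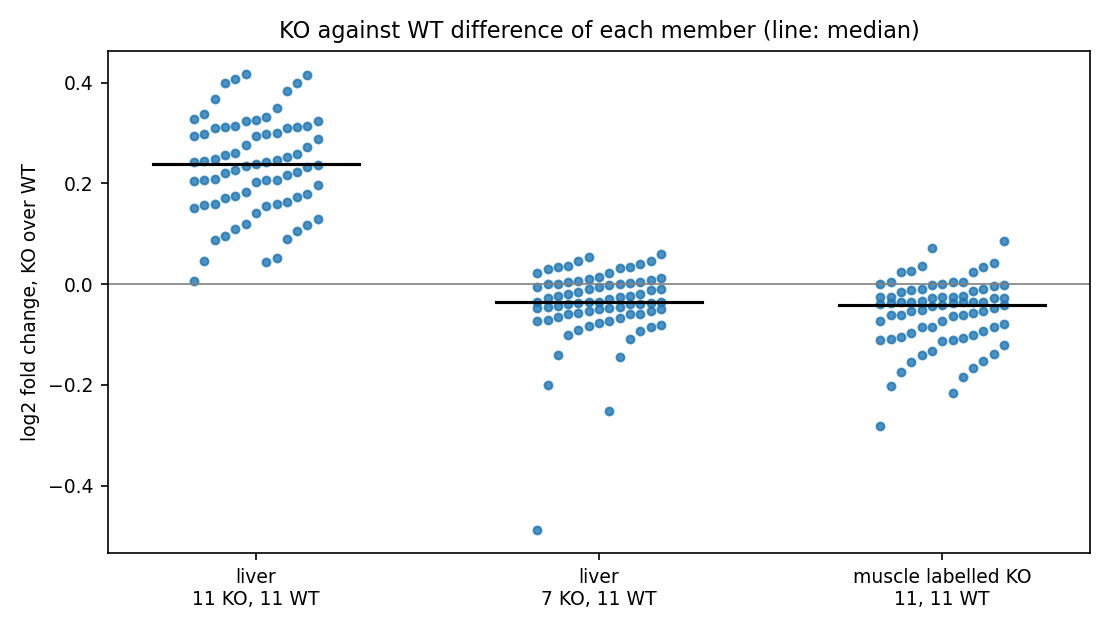
log2 fold change of KO over WT for each member tested (points) in liver with all 11 KO livers, in liver with the 7 KO livers that remain without mice 532, 583, 602 and 611, and in muscle labelled KO; black lines mark the medians. The cloud lies wholly above 0 for all livers (median 0.24) and about 0 for the 7 KO livers (median -0.035) and for muscle (median -0.042).

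The interaction of genotype and tissue tested whether the KO against WT difference was different in muscle and liver. With all 44 libraries, 0 of 77 members passed the adjusted threshold in edgeR, DESeq2 or limma-voom, where edgeR called 1 of 14739 genes (0.00678%). The difference was more negative in muscle for 76 members, the exception being Mrpl23, with a median of -0.30 (all genes 0.027). An unadjusted p under 0.05 in this direction was reached by 50 members (64.9%), against 10% of all genes. With the mouse as replicate block this count was 31 (all genes 7.12%), and it was 29 without mouse 532 (all genes 5.76%) and 27 without mouse 602 (all genes 5.53%), so the share of all genes fell too. Mrpl58 had the smallest p (-0.56 ± 0.15 SE, unadjusted p = 0.00071, adjusted p = 0.23 in edgeR), followed by Mrps34 (-0.53 ± 0.18 SE) and Mrps12 (-0.66 ± 0.22 SE), both with an adjusted p of 0.28; 50.4% of the windows of Mrps34 are shared with other transcripts. Without the 4 livers, 49 members were negative and 28 positive, the median was -0.019, and 1 member, Mrpl58, had an unadjusted p under 0.05 (1.3%, all genes 4.8%), at -0.21 ± 0.07 SE.

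Other genes of mitochondrial translation were compared in the same fits. In the WT tissue comparison, 45.5% of all genes tested passed upward in muscle and 45.5% upward in liver. The counts below are to be read beside these shares. Of the 5 genes of mitoribosomal proteins that carry other names, 3 passed the test upward in WT muscle and 1 downward. Chchd1, a small-subunit protein, was the one with the largest difference (1.18 ± 0.05 SE), followed by Ptcd3 (0.42 ± 0.04 SE) and Dap3 (0.22 ± 0.04 SE). Of 25 genes of ribosome assembly and rRNA modification, 14 were higher in muscle and 9 in liver at the threshold (median 0.12). Malsu1, an assembly factor of the large subunit, was higher in muscle (1.26 ± 0.05 SE) as was the rRNA methyltransferase Mrm1 (0.97 ± 0.10 SE), whereas the methyltransferase Mrm2 was lower in muscle (-0.87 ± 0.07 SE).

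Of 16 translation factors, 6 were higher in muscle and 8 in liver (median -0.13). For all counts in this paragraph, the share of all genes was 45.5% in each direction. The initiation factor Mtif3 was lower in muscle (-1.0 ± 0.05 SE), with 24 to 30.6 CPM in WT liver and 11.5 to 15.9 CPM in WT muscle. The release factor Mtrf1 was higher in muscle (0.69 ± 0.06 SE), and Mtfmt, which formylates the initiator tRNA, was lower (-0.59 ± 0.07 SE). Of 20 genes of mitochondrial aminoacyl-tRNA synthetases and the amidotransferase, 7 were higher in muscle and 10 in liver (median -0.08), with Lars2 (-2.60 ± 0.15 SE), Nars2 (-1.81 ± 0.05 SE) and Gatb (-1.33 ± 0.05 SE) as the largest differences, all lower in muscle. Of 6 tested genes of mitochondrial DNA transcription, 4 were higher in muscle and 1 lower, namely Polrmt, the RNA polymerase (0.92 ± 0.06 SE), and Tfb2m, its partner at the promoter (0.85 ± 0.06 SE), among the former and Mterf1a as the latter (-1.15 ± 0.23 SE).

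The templates of the mitoribosome differed in 1 direction. All 7 mitochondrially encoded mRNAs that could be tested were higher in WT muscle, with log2 fold changes from 0.66 for mt-Co1 to 1.36 ± 0.09 SE for mt-Nd1 and a median of 0.84, against 0.09 for the MRP genes. The other 6 of the 13 were listed at 0 in every library, so shares of reads do not cover them. The 7 mitochondrial mRNAs with reads took 4.77% to 5.46% of all reads in WT liver and 6.73% to 12% in WT muscle. The 75 cytosolic ribosomal protein genes, in comparison, had a median of -0.03, with 27 upward and 28 downward (all genes 45.5% in each direction). In KO liver with all libraries, the 7 mitochondrial mRNAs were negative (median -0.11) where the MRP genes were positive, and none passed the threshold. Without the 4 livers their median was 0.0090. None of the genes of the 6 pathway lists passed the adjusted threshold in liver, in muscle labelled KO or in the interaction.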

How the data were processed

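Poly(A) RNA of liver and skeletal muscle from 11 WT and 11 KO mice was sequenced as stranded single-end reads of 85 bases. The authors deposited raw read counts per gene and RPKM values computed by the authors, 44 columns each. The aligner, counting program, genome build and annotation are not given in the sources used here, and limma is the one tool named in the submitters' processing notes. Because the length implied by both tables differed between tissues for some genes (1.52-fold for Mrpl19), RPKM served for levels and as an alternative, and gene length was the median implied by both tables.

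The members and gene lists were chosen with earlier results of these data known. Symbols came from a table of Ensembl identifiers, which named 36340 of 38202 genes; the identifier of Mrpl33 matched none. Counts were tested in R 4.3.3 with edgeR 4.0.16 (TMM, filterByExpr, quasi-likelihood F-test, Benjamini-Hochberg over all genes tested, threshold 0.05) after testing on simulated data. SE is the log2 fold change divided by the root of F. CPM was TMM-scaled over all 44 libraries. The WT tissue comparison used 22 libraries, each genotype comparison those of its tissue, and the interaction all 44. Shared windows were stretches of 85 bases of the longest coding transcript (GENCODE M21) also found, on either strand, in another gene's transcripts. Partners on the opposite strand, such as the main ones of Mrpl10, Mrps18b and Mrps34, thus count as shared although the libraries were stranded. Genes with shared windows are uncertain where counting could split reads.

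Named members were the 6 with the largest difference in each direction between tissues, those with the smallest p (5 in liver, 5 in muscle, 3 in the interaction), the 5 highest and 5 lowest levels and the 3 largest and 3 smallest CVs in each WT tissue, the Mrps18 paralogues, members outside a fit, and in each pathway list the 3 with the largest tissue difference. The motifs and the printed promoters were chosen after values were seen, and the NRF1 motif was shortened to 9 letters after the search with 10, so both are given. The 4 livers were those with a slope over 3 SD below the WT mean. Alternatives were DESeq2 1.42.0, limma-voom 3.58.1, library-size scaling, other filters, gene length removed by loess (span 0.3), RPKM with pseudocounts of 0.1 and 1, the mouse as block and each mouse left out. The pairing comes from the same animal number in both tissues, read as the same mouse; deviations from group means had a mean correlation of 0.07 within a mouse (-0.02 to 0.18) and -0.0067 between mice. No pair of replicate libraries was identical.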

Additional observations from a re-analysis of the deposited data

How the results depend on the processing

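The direction held for all named members of the liver, muscle and interaction comparisons under the alternatives run. None passed the adjusted threshold, which 3 of 13005, 1 of 13266 and 1 of 14739 genes passed in the main fits, so keeping its side says little. Sizes in liver did not hold: without the 4 livers Mrpl24 went from 0.30 to 0.05 and Mrps21 from 0.40 to 0.01. In the tissue comparison, direction and side of the threshold held except for Mrps18b and Mrps18a. Mrps18b turned from -0.22 to 0.084 (adjusted p = 0.081 in edgeR) with gene length removed. Mrps18a fell short of the threshold in the libraries labelled KO (0.20, adjusted p = 0.16 in edgeR).

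With gene length removed, members higher in WT liver numbered 13 (all genes 41.4%) in place of 31 (all genes 45.5%) and the median of the tissue difference was 0.39. In the libraries labelled KO, 17 members (all genes 42.8%) in place of 37 (all genes 45.5%) were higher in muscle with a median of -0.19. Without the 4 livers the median was 0.019. In KO liver, the count of members with an unadjusted p under 0.05 and a positive difference was 36 (all genes 9.78%). It was 12 with limma-voom (all genes 5.21%), 10 with library-size scaling (all genes 3.95%) and 10 with gene length removed (all genes 7.26%). With either RPKM pseudocount it was 2 (all genes 2.40% and 2.45%). Without the 4 livers it was 0 (all genes 1.36%), with 3 negative members (all genes 1.60%) and a median of -0.035. In the interaction, the count of 50 (all genes 10%) was 23 with library-size scaling (all genes 3.89%), which moved the median of all genes to 0.11. It was 28 with gene length removed (all genes 8.79%) and 1 without the 4 livers (all genes 1.63% in this direction), with a median of -0.019. The mouse as replicate block gave 31 there (all genes 7.12%) and changed no call of an adjusted test among the named members. The causes of these shifts were not tested.

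Leaving out each mouse in turn gave 66 to 68 members past the threshold between WT tissues, with a median of 0.044 (without mouse 624) to 0.12. Of these, 36 to 38 were higher in muscle (all genes 45.5% and 45.2% in those fits) and 30 to 31 higher in liver (all genes 45.3% and 45.4%). In liver it gave 0 past the adjusted threshold and medians of 0.16 to 0.27. At an unadjusted p under 0.05 there were 11 positive members (without mouse 602, all genes 5.24%) to 54 (without mouse 561, all genes 12.8%), and 0 negative. In muscle it gave 0 past the adjusted threshold and medians of -0.052 to -0.035. There, 12 (without mouse 536, all genes 3.63%) to 20 members (without mouse 528, all genes 4.77%) were negative and 0 positive at the unadjusted limit. In the interaction it gave 0 past the adjusted threshold and medians of -0.33 to -0.21. Here, 27 (without mouse 602, all genes 5.53%) to 61 members (without mouse 587, all genes 11.1%) were negative and 0 positive at the unadjusted limit. Depth limits Mrpl23 most, at 2 to 18 reads per liver.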
